A study of Mus musculus with 15 samples.

Results

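Transcripts of 9 plasma protein genes that are made mainly by the liver were read in heart RNA. The genes are Alb, Serpina1d, Apoh, Fgb, Fga, Apoa1, Apoa2, Ahsg and Ttr, out of 18350 genes named on the array. They were found as the probes whose accession maps to these symbols, and each gene had 1 probe. The genes were selected on their measured log2 signals and background flags in these same arrays, so their levels by sex and by treatment are given as a description with no test. The hearts came from C57BL/6 mice, aged 8 to 10 weeks at the first of their weekly intraperitoneal injections. Meth (methamphetamine hydrochloride) was raised by 2 mg a week over 20 weeks to 40 mg/kg, and control mice received PBS, the vehicle, on the same schedule. There were 4 male meth hearts, 4 male PBS hearts, 4 female meth hearts and 3 female PBS hearts, each on its own Agilent array of 1 colour. The 8 males came from 2 trials, with 2 mice per treatment in each. For 3 females (meth 3, meth 4 and PBS 3) the title names trial 1 but the source name trial 2, and trial 1 was used.

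Hepatocytes make most plasma proteins and secrete them into the blood. Albumin carries hormones, fatty acids and drugs and holds water in the vessels, fibrinogen is cut into the fibrin of a clot, serpins block proteases, and apolipoproteins carry lipid. In adult heart muscle these genes are not known as major products, whereas Ttr and the apolipoproteins are also made in some other organs. In hepatocytes such genes are read under factors of the HNF1, HNF4, FOXA and C/EBP families.

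Promoters are shown for the members that carry a short HNF1 site core and, for contrast, for Apoh, which shares the signal pattern of Alb without those letters. Each line gives 250 bases before the annotated start and 50 after it from RefSeq (GRCm38.p6), read on the strand of the gene. Capitals mark GTTAAT or its reverse complement, ATTAAC, searched on both strands.
Alb (chr5:90460620-90460919, + strand): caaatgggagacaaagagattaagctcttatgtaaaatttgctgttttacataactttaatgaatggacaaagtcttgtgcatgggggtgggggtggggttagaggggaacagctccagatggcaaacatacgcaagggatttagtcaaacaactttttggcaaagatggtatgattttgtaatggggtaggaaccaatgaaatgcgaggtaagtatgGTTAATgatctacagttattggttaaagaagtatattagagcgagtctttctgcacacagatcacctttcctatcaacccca
Serpina1d (chr12:103773584-103773883, - strand): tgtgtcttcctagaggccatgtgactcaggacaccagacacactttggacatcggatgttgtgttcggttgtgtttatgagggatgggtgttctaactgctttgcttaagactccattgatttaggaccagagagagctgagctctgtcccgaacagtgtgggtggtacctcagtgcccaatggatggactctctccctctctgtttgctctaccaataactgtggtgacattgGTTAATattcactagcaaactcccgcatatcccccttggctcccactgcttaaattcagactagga
Fgb (chr3:83049814-83050113, - strand): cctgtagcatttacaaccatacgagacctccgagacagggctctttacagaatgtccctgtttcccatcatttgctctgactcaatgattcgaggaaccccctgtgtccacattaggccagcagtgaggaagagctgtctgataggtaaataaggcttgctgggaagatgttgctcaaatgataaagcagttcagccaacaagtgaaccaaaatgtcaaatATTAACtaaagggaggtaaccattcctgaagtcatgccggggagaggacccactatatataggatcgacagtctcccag
Fga (chr3:83025903-83026202, + strand): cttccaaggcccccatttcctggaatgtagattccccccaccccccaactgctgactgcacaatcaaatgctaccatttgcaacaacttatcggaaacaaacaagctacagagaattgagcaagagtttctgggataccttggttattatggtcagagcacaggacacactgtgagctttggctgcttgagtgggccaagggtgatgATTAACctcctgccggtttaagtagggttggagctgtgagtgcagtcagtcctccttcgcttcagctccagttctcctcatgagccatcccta
Apoh (chr11:108395047-108395346, + strand): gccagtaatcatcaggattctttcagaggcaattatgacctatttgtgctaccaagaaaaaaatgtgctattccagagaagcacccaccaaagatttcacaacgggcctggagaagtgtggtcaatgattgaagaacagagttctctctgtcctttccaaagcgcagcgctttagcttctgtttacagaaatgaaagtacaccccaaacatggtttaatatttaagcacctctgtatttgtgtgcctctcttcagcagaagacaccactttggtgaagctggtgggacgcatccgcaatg
The letters were found in 4 of the 8 members with a promoter entry, and in 7.1% of all 32851 promoters of this length. They began 32 bases before the start in Alb, 16 in Serpina1d, 29 in Fgb and 43 in Fga. Among the hepatocyte genes on the wider lists described further on, 20 of 95 with an entry held them. They were found in 1 of the 10 list genes seen in at least 4 female hearts and no male heart, and in 19 of the 85 others. The TATA box letters TATAAA were found in Apoa2 alone, in 1 of its 2 promoters, against 13.6% of all promoters. The letters CAAAGTCCA, a core of HNF4 sites, were found in none of the members and in 0.475% of all promoters. These matches describe the sequences, and say nothing of binding in these hearts.

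The signal is the background-subtracted brightness of the Cy3 dye, on the log2 scale, set to 0 at the 75th percentile of each array. The scanner software flags a spot as well above background when it clearly exceeds its surroundings. The lowest signals that carried this flag lay between -5.85 and -4.89 over the arrays, so values near -7 are background readings with no order among them. Heart muscle was well represented, since all 8 cardiomyocyte markers were well above background on all 15 arrays and their summed signal was 2982 to 4324 times the array's reference level. On each array 61.3% to 71.4% of probes were well above background. The arrays lay on 4 slides read in 3 sessions. Slides 1 and 2 each held 1 heart of each of the 4 groups from trial 1, slide 3 held the trial 2 males, and slide 4 held the 3 female hearts with conflicting trial labels. The slide 4 arrays were brighter, with a 75th percentile of 438 to 589 units against 307 to 403 on the others. They also had the largest shares of probes well above background (67.6% to 71.4%) and the lowest clear signals (-5.85 to -5.61). In whole-heart RNA, fewer cells that carry a transcript and less transcript per cell cannot be told apart.

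The members fell into 3 kinds. Alb, Apoh, Fgb and Apoa1 were well above background in female hearts and in no male heart. Serpina1d, Apoa2 and Ahsg were well above background on all 15 arrays. Fga and Ttr were well above background on no array. Every male array thus showed the same 3 of the 9 members. Female arrays showed 4 to 7 of them, with 4 in meth mouse 4 and in PBS mouse 1, and 7 in PBS mice 2 and 3. The filter for the fit across all probes asked for a clear signal on at least 3 of the 15 arrays. It was met by 6 members, while Apoa1, clear on 2 arrays, fell just outside and Fgb, clear on 4, just inside. These 3 kinds are visible in the plot of all 9 transcripts by heart.

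**Figure D1:**
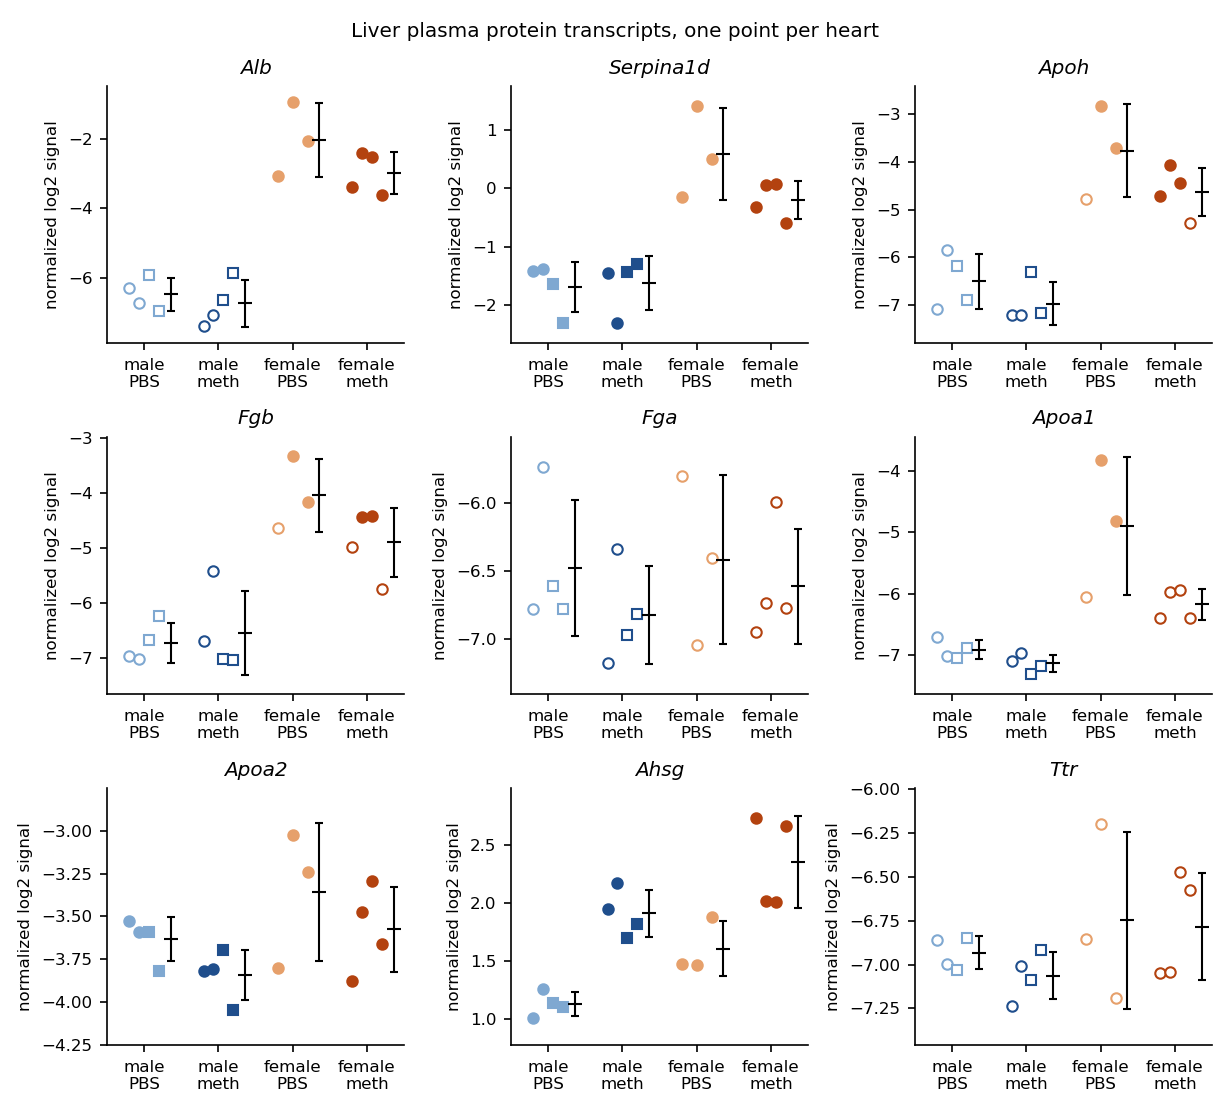
Normalized log2 signal (vertical axis, 0 at the 75th percentile of each array) of the 9 plasma protein transcripts in 4 groups of hearts, with 1 point per array. Filled points are well above background and open points are not. Circles are trial 1 and squares trial 2, and the bars give the mean ± SD of each group. Alb was filled in all 7 female hearts, from -3.62 to -0.96, and open in all 8 male hearts, from -7.38 to -5.85.

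Alb (albumin, the most abundant plasma protein, chr5:90460870-90476602, probe A_51_P160713) separated the sexes most widely among the members. Its normalized log2 signal was -3.07, -0.96 and -2.07 in female PBS mice 1 to 3. In female meth mice 1 to 4 it was -3.39, -2.40, -2.52 and -3.62. In male PBS hearts it read -6.29 and -6.73 in trial 1 and -5.91 and -6.95 in trial 2, none of them well above background. Male meth hearts read -7.38 and -7.07 in trial 1 and -6.63 and -5.85 in trial 2, also not well above background. All female values thus lay above all male values, with more than 2 log2 units between the nearest hearts. The fitted male minus female difference was -4.70 ± 0.53 (SE) in PBS hearts and -4.01 ± 0.49 in meth hearts. Because male hearts had no clear signal, only a bound can be given. Alb was at least 7.75-fold higher in female than in male PBS hearts and at least 4.48-fold higher in female than in male meth hearts. The bound sets the mean of the bright group against the lowest clear signal on each dim array. All female hearts were clear for Alb. For genes with hearts of the bright group that were not clear, those readings enter the mean, and "at least" does not hold strictly. The difference was also present within the slides that both sexes shared, where female minus male was 3.60 on slide 1 and 5.22 on slide 2. With the 6 female hearts other than PBS mouse 2, the lowest Alb signal was -3.62 and the highest -2.07, and no male value reached that range.

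Serpina1d (a protease inhibitor of the alpha-1-antitrypsin group, chr12:103763587-103773633, probe A_51_P236303) was the one member that was clear in every heart and still separated the sexes. Near-identical genes lie beside it, so the probe may read more than Serpina1d. Its log2 signal was -0.14, 1.42 and 0.50 in female PBS mice 1 to 3. In female meth mice 1 to 4 it was -0.32, 0.06, 0.07 and -0.59. Male PBS hearts read -1.41 and -1.39 in trial 1 and -1.63 and -2.31 in trial 2. Male meth hearts read -1.44 and -2.30 in trial 1 and -1.43 and -1.29 in trial 2. The ranges by sex did not overlap, while those by treatment did within each sex. The fitted male minus female difference was -2.26 ± 0.40 (SE) in PBS hearts and -1.40 ± 0.37 in meth hearts. As fold values these are 4.79 and 2.64 in favour of females. Female minus male was 1.20 on slide 1 and 2.58 on slide 2.

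Apoh (apolipoprotein H, which binds phospholipids and is a known target of antiphospholipid antibodies, chr11:108395297-108414396) followed Alb at a lower signal. Female PBS mice 1 to 3 gave log2 signals of -4.78, -2.84 and -3.71, of which the first was not well above background. Female meth mice 1 to 4 gave -4.72, -4.08, -4.45 and -5.28, of which the last was not. The 8 male hearts ran from -7.20 to -5.85, with a median of -6.97, and none was well above background. All female arrays lay above all male arrays. By the rule used for Alb, Apoh was 2.31-fold higher in female than in male PBS hearts and 1.43-fold higher in female than in male meth hearts. Each female mean holds a heart that was not clear, so these are not strict bounds. The fitted male minus female differences were -2.82 ± 0.49 (SE) and -2.43 ± 0.46.

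Of the fibrinogen chains, 2 are members. Fgb (the beta chain, chr3:83042246-83049863) gave -4.64, -3.33 and -4.16 in female PBS mice 1 to 3 and -4.97, -4.43, -4.41 and -5.74 in female meth mice 1 to 4. It was clear in PBS mice 2 and 3 and in meth mice 2 and 3. The 8 male hearts ran from -7.03 to -5.42 with none clear, and the highest of them lay above female meth mouse 4, so the sexes overlapped at background level. By the rule used for Alb, Fgb was 1.93-fold higher in female than in male PBS hearts. The female mean holds mouse 1, which was not clear, so this is not a strict bound. Fga (the alpha chain, chr3:83026153-83033627) starts on the same chromosome with 8.6 kb between both genes. Its signal ran from -7.18 to -5.74 in males and from -7.05 to -5.80 in females, and no array was clear. Both promoters printed above hold the HNF1 site core. Each probe has its own sensitivity, so the levels of both chains cannot be set against each other. The third chain, Fgg, belongs to the coagulation list and is described with it.

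Apoa1 (the main protein of high-density lipoprotein, chr9:46228630-46230469) was clear in 2 hearts, both female PBS. Their log2 signals were -3.81 in mouse 2 and -4.82 in mouse 3, while female PBS mouse 1 read -6.06. The 4 female meth hearts read -6.39, -5.97, -5.94 and -6.40, and the male hearts -7.31 to -6.70. None of these readings was well above background, so no order is read from them. In PBS hearts the rule used for Alb gave 1.06-fold for females over males. The female mean holds the reading of mouse 1, which was not clear, so this is not a strict bound. Apoa2 (the other main protein of high-density lipoprotein, chr1:171221564-171226379) was clear on every array and nearly level. Its RefSeq span overlaps Tomm40l. Male hearts ran from -4.05 to -3.53 with a median of -3.75, and female hearts from -3.88 to -3.03 with a median of -3.48. The sexes overlapped, and the fitted male minus female difference in PBS hearts was -0.22 ± 0.19 (SE).

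Ahsg (fetuin-A, an inhibitor of mineral deposition, chr16:22892015-22899451) was the brightest member, and the one whose meth and PBS hearts did not overlap in either sex. Male PBS hearts gave log2 signals of 1.01 and 1.26 in trial 1 and 1.14 and 1.11 in trial 2. Male meth hearts gave 1.95 and 2.18 in trial 1 and 1.70 and 1.82 in trial 2. Female PBS mice 1 to 3 gave 1.48, 1.47 and 1.88, and female meth mice 1 to 4 gave 2.73, 2.02, 2.01 and 2.67. The meth hearts were thus the higher ones in both sexes and in both male trials. The fitted meth minus PBS difference was 0.78 ± 0.17 (SE) in males, a fold of 1.72, and 0.75 ± 0.19 in females, a fold of 1.68. Within trials the male difference was 0.93 and 0.64, and within slides the female difference was 1.26, 0.55 and 0.46 on slides 1, 2 and 4. Among all 28358 probes tested, 4.68% had all male meth arrays above all male PBS arrays, and 3.15% had the same in females. By sex the fitted male minus female difference was -0.40 ± 0.21 in PBS hearts. White fat markers lay the same way. The summed signal of the white fat list was 57.3 to 88.3 times the reference level in female meth hearts against 24.0 to 30.1 in female PBS hearts, and 29.8 to 144.7 against 15.6 to 48.4 in males, where the groups overlapped. All 4 tested markers of that list had fitted values above 0 in both sexes, with 1 past the threshold in males (Cfd, adipsin, 1.44, adjusted p = 0.0444 by limma, past it in 8 of 30 alternatives) and 0 in females, where 4 had an unadjusted p under 0.05. The part of fat tissue in the Ahsg readings was not tested.

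Ttr (transthyretin, a carrier of thyroid hormone and retinol) gave no clear signal. It ran from -7.24 to -6.85 in males and from -7.19 to -6.20 in females. For Ttr and Fga the arrays bound the level from above only, and transcripts under the lowest clear signal were not detectable.

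For Alb, Apoh, Fgb and Serpina1d the meth and PBS hearts overlapped in each sex, and the fitted female values lay below 0. The fitted female meth minus PBS difference was -0.95 ± 0.48 (SE) for Alb, -0.86 ± 0.45 for Apoh and -0.85 ± 0.44 for Fgb. For Serpina1d it was -0.79 ± 0.36. With female PBS mouse 2 left out these values were -0.41 for Alb, -0.39 for Apoh, -0.49 for Fgb and -0.37 for Serpina1d. Within slides 1, 2 and 4, on which meth and PBS hearts were read side by side, the female difference was -0.32, -1.44 and -0.999 for Alb. It was -0.34, -1.10 and -0.92 for Fgb and -0.18, -1.35 and -0.76 for Serpina1d. For Apoh it was 0.06, -1.24 and -1.16. The within-slide values were thus of 1 sign for Alb, Fgb and Serpina1d and not for Apoh, with 1 PBS heart on each slide. In males the corresponding values were -0.26 ± 0.44 for Alb, -0.47 ± 0.41 for Apoh, 0.18 ± 0.41 for Fgb and 0.07 ± 0.34 for Serpina1d. The male trials pointed in different directions for Alb (-0.71 and 0.19), Fgb (0.94 and -0.57) and Serpina1d (-0.47 and 0.61). Apart from Serpina1d those male values are differences between background readings.

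**Figure D2:**
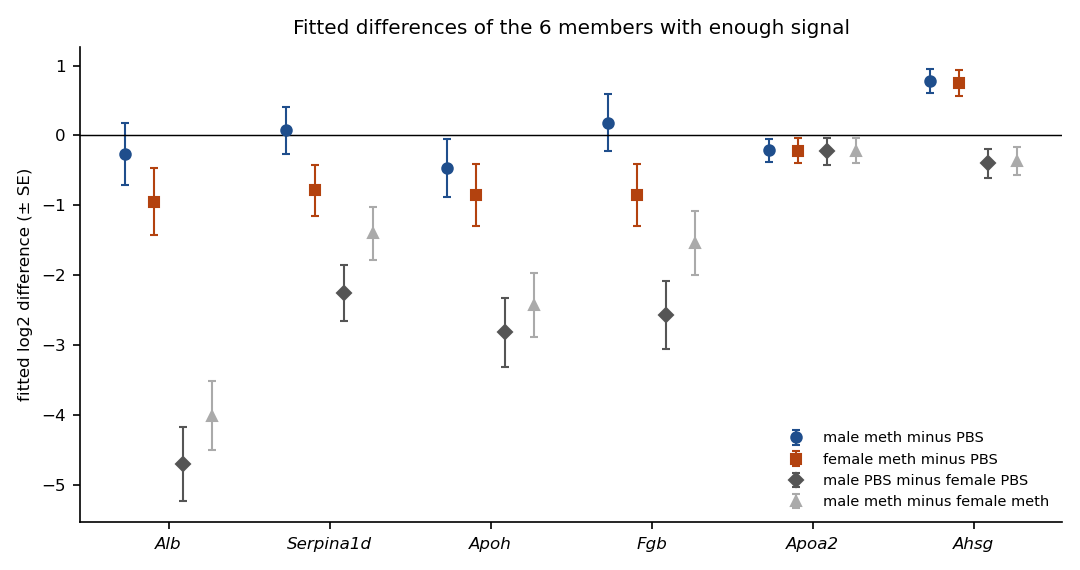
Fitted log2 differences with their SE (vertical axis) for the 6 members that met the filter on signal (horizontal axis), in 4 comparisons. Values below 0 are lower in the first-named group. Alb, Serpina1d, Apoh and Fgb lay furthest below 0 in the male minus female comparisons, and Ahsg alone lay above 0 in both meth comparisons.

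Among the 7 female hearts the same animals were high for most members. PBS mouse 2 was the highest for Alb, Serpina1d, Apoh, Fgb, Apoa1 and Apoa2, and PBS mouse 3 was second for each of these. Meth mouse 4 was the lowest for Alb, Serpina1d, Apoh and Fgb, of which Apoh and Fgb were not clear in it. The span from the lowest to the highest female heart was 6.35-fold for Alb, 5.98-fold for Apoa1, 5.42-fold for Apoh, 5.34-fold for Fgb, 4.01-fold for Serpina1d and 1.80-fold for Apoa2. Of the 7 female hearts Apoh was clear in 5, Fgb in 4 and Apoa1 in 2. The low ends of these 3 spans, and part of the readings in the correlations that follow, were thus not clear. Over the 7 female arrays, Pearson's r with Alb was 0.98 for both Apoh and Serpina1d, 0.96 for Fgb, 0.94 for Apoa1 and 0.90 for Apoa2. Spearman's rho was 0.96, 0.96, 0.96, 0.96 and 0.86 in the same order. These points share their arrays, slides and normalization, and the values are a description. Ahsg ran the other way, with r = -0.71 and rho = -0.71, and Ttr and Fga, both at background, gave r = 0.38 and -0.21. In the 8 male arrays Alb and Serpina1d, the first at background, gave r = 0.43. By slide, the Alb signal of the slide 2 heart was the highest within each treatment, while both slide 1 hearts lay below all others except meth mouse 4. The part of the slide in this order was not tested.

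**Figure D3:**
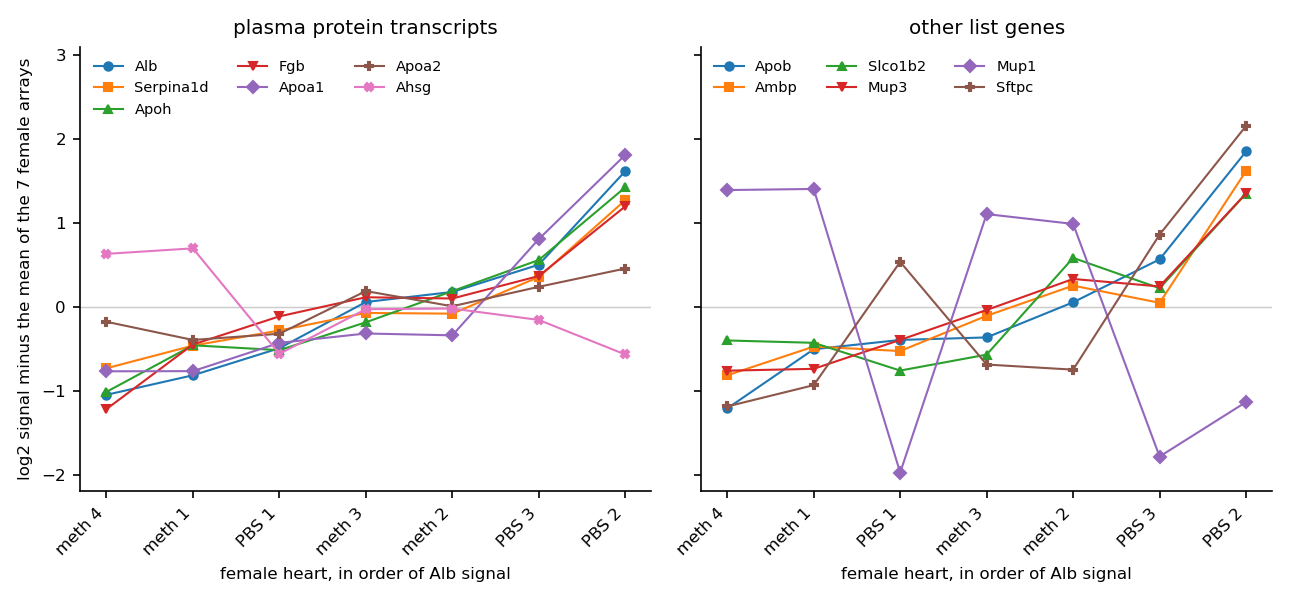
Log2 signal minus the mean of the 7 female arrays (vertical axis) for plasma protein transcripts (left) and for genes of the wider lists (right), with the female hearts in order of Alb signal (horizontal axis). Most lines end highest at PBS mouse 2, while Ahsg and Mup1 were higher in meth hearts and Sftpc was higher in all 3 PBS hearts than in the meth hearts.

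Of the genes outside the 9, the 5 with a profile most like the mean of the 6 members with a clear signal on at least 3 arrays were Apob, Slco1b2, Mug1, Fabp1 and Sftpc. Over 15 arrays Pearson's r was 0.98, 0.97, 0.97, 0.96 and 0.96, and Spearman's rho 0.86, 0.70, 0.90, 0.78 and 0.79. After the mean of each group was removed, r was 0.83, 0.78, 0.77, 0.52 and 0.68. Apob is the core protein of lipoproteins made by liver and gut, Slco1b2 an organic anion carrier of hepatocytes, Mug1 a plasma protease inhibitor and Fabp1 the liver fatty acid binding protein. Sftpc is a surfactant protein of alveolar cells in the lung. None of the 5 was clear on a male array.

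The wider set of hepatocyte genes was read through 8 lists, which were drawn up with earlier results of these data known. They held 133 genes, of which 124 were on the array and 90 met the filter. Of the 124 genes, 47 were clear on all 15 arrays and 25 on none by any of their probes. The 47 met the filter in every group, and leave out the genes that were at background in 1 sex. In male against female PBS hearts 0 of the 47 passed the threshold in either direction (limma, Benjamini-Hochberg over all 28358 probes). Of the 23808 probes clear on all arrays, 0.168% were higher in males and 0.168% in females. An unadjusted p under 0.05 was found for 14 of the 47 and for 4314 of all 28358 probes. The median male minus female difference of the 47 was -0.01, as it was over the 23808 probes. In meth hearts, a comparison added after the levels had been seen, 3 of the 47 were higher in males and 1 in females, with a median of -0.01 against -0.02. Of the 23808 probes, 1.01% were higher in males and 1.45% in females there. Over all 90 tested genes 10 were higher in female PBS hearts and 0 in male PBS hearts, where 0.293% of all probes were higher in females. Of these 10, however, 7 (Apob, Ambp, Mbl2, Mup3, Mup5, Slco1b2 and Uox) were clear on no male array and met the filter through females alone, so nothing is read from the count and they are given as bounds. The other 3 were Hc, Mup1 and Mup4. In meth hearts 9 of the 90 were higher in females, of which 6 were clear on no male array, and 3 in males, against 1.44% of all probes higher in females. For 13 of the 90 tested genes all 7 female arrays lay above all 8 male arrays, which held for 0.959% of the probes tested. The same was true of Alb, Apoh and Serpina1d among the tested members. It held also for Apoa1, which was not tested and read at background on most arrays. Among the 13, Apob, Ambp, Hpx, Mbl2, Mup3, Mup5, Slco1b2 and Fbp1 were clear on no male array. They met the filter through females alone, so nothing is read from that count either. Also 13 of the 124 were clear on at least 4 female arrays and on no male array, as were 0.478% of all 41174 probes. The opposite, clear on at least 4 male arrays and no female array, held for 0.0777% of all probes. Slide 4, with the most clear probes per array, held female hearts alone, and its part in both shares was not tested. As the lists were drawn up with earlier results known, nothing is read from these shares. With low signals set to a floor, the list calls by sex in PBS hearts were 5 (Hc, Mup1, Mup3, Mup4 and Mup5), and with normexp background correction 2 (Mup1 and Mup4).

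**Figure D4:**
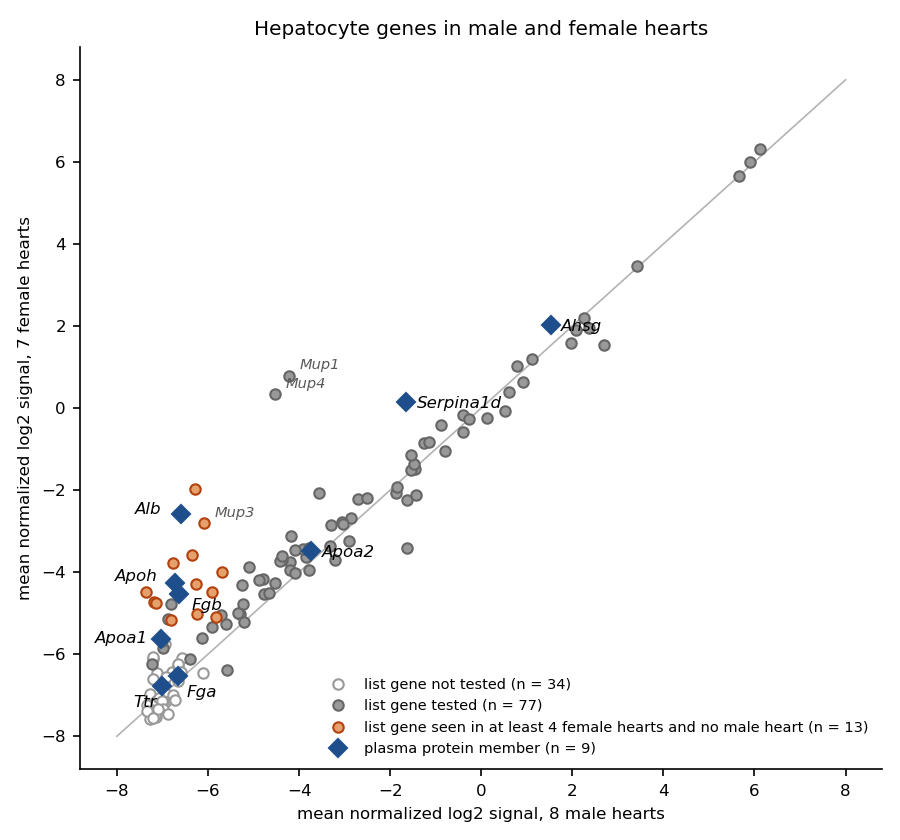
Mean normalized log2 signal over the 8 male hearts (horizontal axis) and the 7 female hearts (vertical axis) of 124 hepatocyte list genes and the 9 plasma protein members, 1 point per gene. The line marks equal signal. Most genes lay along the line, from background near -7 up to 6, and the 13 orange genes and Alb, Apoh and Fgb lay above it at the left edge.

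The carriers and apolipoproteins were the list nearest to the members by function, with 20 genes on the array and 15 tested. Apob and Ambp (the precursor of alpha-1-microglobulin and bikunin) were clear in all 7 female and in no male hearts. Apob gave log2 signals of -4.17, -1.93 and -3.21 in female PBS mice 1 to 3 and from -4.99 to -3.72 in female meth mice, against -7.36 to -6.01 in males, none clear. In bounds, Apob was at least 3.69-fold and Ambp at least 3.43-fold higher in female than in male PBS hearts, and at least 1.81-fold and 2.42-fold higher in female than in male meth hearts. The other 4 Apob probes were clear in no heart, so the reading rests on 1 of 5 probes. Hpx (hemopexin, a heme carrier), clear in 5 female and no male hearts, was at least 1.99-fold higher in female PBS hearts. Pon1 (paraoxonase, an enzyme of high-density lipoprotein), clear in every heart, ran the other way. Its signal was -2.09 to 0.09 in male meth and -3.77 to -2.73 in female meth hearts, with a male minus female difference of 2.35 ± 0.45 (SE, adjusted p = 0.0177 by limma). In PBS hearts it was 2.15 ± 0.48 and did not pass (adjusted p = 0.0777). Without male meth trial 1 mouse 2 the meth value was 1.80 (adjusted p = 0.111). Apoe, the brightest of this list and also a product of macrophages, differed little, with a male minus female value of -0.05 in PBS hearts.

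Of the coagulation list 0 of 12 tested genes passed in PBS hearts by limma, and 3 had an unadjusted p under 0.05. Fgg, the fibrinogen gamma chain, gave -5.31 in female PBS mouse 1 and -2.71 in mouse 2, with clear signals in 4 female and no male hearts. By the rule used for Alb it was 1.97-fold higher in female PBS hearts. That mean holds the reading of mouse 1, which lay under the lowest clear signal of its array. Plg (plasminogen) and the inhibitor Serpina3k were also clear in 4 female and no male hearts. The inhibitor list had 0 of 10 tested genes past the threshold by limma in PBS hearts, with 4 at an unadjusted p under 0.05. In meth hearts its Fetub (fetuin-B), clear in every heart, was higher in males by 0.77 ± 0.15 (SE, adjusted p = 0.0195 by limma), and no longer passed without male meth trial 1 mouse 2 (0.55, adjusted p = 0.0974), female meth mouse 3 (0.72, adjusted p = 0.0539) or female meth mouse 4 (0.75, adjusted p = 0.0534).

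Of the complement list 2 of 10 tested genes passed in PBS hearts, of which Mbl2 met the filter through females alone. Hc (C5), clear in all 7 female and 5 male hearts, gave a male minus female difference of -1.90 ± 0.32 (SE, adjusted p = 0.0234 by limma). Only 1 of the 4 male PBS hearts was clear for Hc. The call was missed in 8 of 26 alternatives, among them without female PBS mouse 2 (-1.61, adjusted p = 0.0959), female PBS mouse 3 (-1.97, adjusted p = 0.0635), male PBS trial 1 mouse 2 (-1.97, adjusted p = 0.0754) and male PBS trial 2 mouse 1 (-1.86, adjusted p = 0.0505). Mbl2 (a lectin that starts the lectin pathway) was clear in 3 female and no male hearts and at least 1.73-fold higher in female PBS hearts. Masp2 (a protease of the lectin pathway) was clear in every heart and higher in female meth hearts, with a male minus female difference of -0.45 ± 0.11 (adjusted p = 0.0497), a call that held in 6 of 27 alternatives. C3, bright in heart, gave 0.13 in PBS hearts. The acute phase list had 0 of 9 tested genes past the threshold by limma in PBS hearts, 2 with an unadjusted p under 0.05, and a median of 0.40.

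All 5 major urinary protein genes on the array, liver products that mice excrete with pheromones, were clear in at least 4 female hearts. Mup1 and Mup4 were clear in all 7 female hearts and in the 4 male meth hearts, and in no male PBS heart. In PBS hearts they were at least 17.6-fold and 13.5-fold higher in females (adjusted p = 0.00213 and 0.00752 by limma). Mup3 and Mup5 were clear in all 7 female and no male hearts, and at least 6.01-fold and 4.43-fold higher in female PBS hearts. These genes share most of their sequence, so their probes may read each other's transcripts. Mup3 followed Alb across female hearts, with -3.19, -1.45 and -2.56 in PBS mice 1 to 3 and from -3.56 to -2.47 in meth mice. Mup1 did not follow Alb, since it was higher in female meth hearts (1.78 to 2.19) than in female PBS hearts (-1.19 to -0.35).

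Enzymes and transport proteins of the hepatocyte were mixed. Slco1b2 was clear in 5 female hearts and Uox (urate oxidase) in 6, and neither in a male heart. They were at least 1.41-fold and 2.92-fold higher in female than in male PBS hearts. The other Uox probe was clear in no heart, so the Uox reading rests on 1 of 2 probes. Fbp1, an enzyme of glucose synthesis, was clear in all 7 female and no male hearts, and at least 2.05-fold higher in female PBS hearts. The alcohol dehydrogenase Adh1, clear in every heart, was higher in male than in female meth hearts by 0.55 ± 0.10 (SE, adjusted p = 0.0153 by limma), and by 0.47 (adjusted p = 0.115) without male meth trial 1 mouse 2. Of 29 enzymes on the array, 7 were clear in no heart. They were Hpd, Hal, Cyp7a1, Slc10a1, Mat1a, Otc and Dpys. Of the transcription factors 0 of 10 passed by limma between male and female PBS hearts, with 1 unadjusted p under 0.05. Foxa2, Foxa3, Nr1i2 and Onecut1 were clear in no heart, while Cebpa and Cebpb were clear in all 15.

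The meth comparisons called few genes of these lists. In males 4 of the 90 rose after meth and 0 fell, against 1.11% of all probes called in either direction. They were Mup1 (at least 4.72-fold, adjusted p = 0.0116), Mup4 (at least 3.05-fold, adjusted p = 0.0445, past the threshold in 8 of 29 alternatives), the cytochrome Cyp2e1 (1.92 ± 0.34 SE, adjusted p = 0.0192) and Adh1 (0.77 ± 0.09, adjusted p = 0.00163). Cyp2e1 no longer passed without male PBS trial 1 mouse 2 (1.65, adjusted p = 0.0665), male PBS trial 2 mouse 1 (1.90, adjusted p = 0.0687) or male meth trial 2 mouse 1 (1.85, adjusted p = 0.0622). The white fat values given beside Ahsg lay higher in the same meth groups, and the part of fat tissue was not tested here either. In females Mup1 rose (2.86 ± 0.51, adjusted p = 0.0293) and 0 list genes fell, against 0.758% of all probes. The Mup1 call was lost when any 1 of the 7 female arrays was left out, with values from 2.68 to 3.105. Mup6 was clear in the 4 female meth hearts and in no other heart, and so met the filter through the group where it is high. It was at least 4.28-fold higher in female meth than in female PBS hearts. Between the male and the female response 0 of 90 genes passed the threshold by limma, against 0.138% of all probes. An unadjusted p under 0.05 was found for 8 of the 90 and for 2458 of all 28358 probes. With the replicate number as a block, Mup1 in males (adjusted p = 0.0958), Mup4 in males (adjusted p = 0.131), Cyp2e1 in males (adjusted p = 0.107) and Mup1 in females (adjusted p = 0.148) no longer passed. Adh1 in males still did (adjusted p = 0.0371). The median meth minus PBS difference of the 90 was 0.17 in males and 0.06 in females, against -0.03 and 0.00 for all probes tested. For the 9 tested acute phase genes the median was 0.465 in males and 1.09 in females, and 0 passed by limma. Of these 9, 2 in males and 7 in females had an unadjusted p under 0.05, against 3640 and 3129 of all 28358 probes.

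Markers of other cells and tissues moved with the female pattern in part. Sftpc, the alveolar marker named above, was clear in all 7 female and no male hearts. Its signal was -2.25, -0.63 and -1.93 in female PBS mice 1 to 3, and from -3.98 to -3.48 in female meth mice. In PBS hearts it was at least 10.4-fold higher in females. Sftpd was also lower in male PBS hearts (-3.57 ± 0.67 SE, adjusted p = 0.0391 by limma), none of them clear. It was clear in all 4 male meth hearts, with a male meth minus PBS difference of 3.82 ± 0.56 (adjusted p = 0.00695 by limma). Sftpa1 was clear in 3 male meth hearts and in no other heart, and so met the filter through the group where it is high. Sftpb was clear in no heart. The summed signal of the 4 alveolar genes was 0.292 to 0.839 in female PBS, 0.106 to 0.136 in female meth, 0.0266 to 0.0383 in male PBS and 0.0922 to 0.391 in male meth hearts. The airway secretory list also differed by sex in PBS hearts. Its Scgb1a1 (the club cell secretoglobin), clear in all 7 female hearts and 2 male PBS hearts, was higher in female PBS hearts. The male minus female difference was -5.25 ± 0.61 (SE, adjusted p = 0.0019 by limma), and the 2 other genes tested, Scgb3a1 and Bpifa1, did not pass. All 3 rose after meth in males by limma. The values were 9.29 for Scgb1a1 (adjusted p = 2.92e-06), 5.70 for Scgb3a1 (adjusted p = 3.1e-05) and 12.13 for Bpifa1 (adjusted p = 2.92e-06). In females Bpifa1 rose by 4.77 (adjusted p = 0.0112 by limma). Bpifa1 was clear in no PBS heart, so its rises start from background readings. The summed airway signal was 1.25 to 2.57 in female PBS and 0.768 to 2.93 in female meth hearts, against 0.252 to 0.274 in male PBS and 29.1 to 143.2 in male meth hearts. It was lowest in male PBS and highest in male meth hearts. The 4 Kupffer cell markers, of the macrophages of the liver, were clear on all arrays. By limma 0 of 4 passed in any of the 5 comparisons, with 2 at an unadjusted p under 0.05 between male and female PBS hearts, in opposite directions, with male minus female values of 1.36 for Clec4f and -1.16 for Cd5l. Their summed signal was 1.11 to 1.42 in female PBS and 1.01 to 1.38 in female meth hearts, against 0.532 to 1.01 and 0.556 to 1.104 in male PBS and meth hearts. The enterocyte list, for the gut source of apolipoproteins, had a summed signal of 0.198 to 0.280 in female PBS and 0.165 to 0.221 in the other 3 groups, and 0 of its 3 tested genes passed by limma in PBS hearts by sex, with 0 at an unadjusted p under 0.05. The exocrine pancreas list had sums of 0.294 to 0.571 over all arrays, with the same 2 counts. The part of RNA from other tissues in the readings of the members was not tested.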

How the data were processed

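RNA was extracted from whole hearts, labelled with Cy3 and hybridised to Agilent mouse arrays, 15 in all. The authors deposited the background-subtracted intensity of each spot from Agilent Feature Extraction (version 9.1 per the labels, 10.5.1.1 per the file headers), with flags for signals well above background. Their deposited log2 table matched the log2 intensity plus a constant for each array (tolerance 0.01) and was used as an alternative. A genome build for the probes was not given in the sources used here.

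Control spots were left out, spots of a probe were averaged and the 75th percentile of each array was subtracted. Of 41174 probes, 26918 had an accession that matched a symbol in RefSeq's table (GRCm38.p6), whose coordinates are printed. A list gene with several probes is given by its brightest. A fit of the 28358 probes with a clear signal on 3 or more arrays was made with limma 3.58.1 in R 4.3.3, with the 4 groups and the trial. Benjamini-Hochberg adjustment ran over all fitted probes, with a threshold of 0.05. P-values are two-sided and measure the spread between these mice. Plots used matplotlib 3.10.9.

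The members, gene lists and tests were chosen with earlier results of these data known. The genes named are all 9 members, the list genes past the threshold in the first 4 comparisons, the 3 brightest genes of a list where a level is described, and the 5 most alike in profile. Genes clear in females alone that missed the threshold (Hpx, Fgg, Plg, Serpina3k and Fbp1) and genes past it in the added meth comparison by sex (Pon1 and Masp2) were named after their values were seen. Replicate numbers pair the arrays by slide: departures from the group means correlated between meth and PBS arrays of a number, with r = 0.17 to 0.32 in males and 0.25 to 0.62 in females over 28320 probes.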

Additional observations from a re-analysis of the deposited data

Results flagged for a closer look

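Among 42 genes (the members and the hepatocyte list genes named by rule) in each of the 3 groups of 4 hearts, 126 sets of values were examined for 1 heart that stood far from the other 3, and 13 stood out. Chance alone gives about 1 in 20. Female PBS hearts, 3 in number, were not examined.

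Of the members, Serpina1d was low in male meth trial 1 mouse 2 (log2 signal -2.30). Apoh in male meth trial 2 mouse 1 (-6.30) and Fga in male PBS trial 1 mouse 2 (-5.74) stood high among background readings, as did Mup3 in male PBS trial 2 mouse 1 (-5.38).

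Male PBS trial 1 mouse 1 accounted for 5 of the 13, with Serpina3m at -1.77, Fetub at -1.94, Hp at 3.09, Hamp at 0.0127 and Cebpb at -3.15. Cebpb also stood apart in male meth trial 1 mouse 1 (-1.37), and Serping1 in male meth trial 2 mouse 1 (3.77). In females, Uox (-3.74) and Slco1b2 (-4.18) were high in female meth mouse 2. No cause was tested for any of these.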

How the results depend on the processing

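Below, values follow the order male response, female response, their difference, male against female PBS and male against female meth, the last one a comparison added after the data had been seen. Over all probes 314, 215, 39, 136 and 744 were called, and of the 90 hepatocyte list genes 4, 2, 0, 10 and 12. Only values more than 1.5 times apart from these are given. Normexp background correction, which compresses low signals, gave 57, 29, 17, 23 and 109 over all probes, and 2 list genes in males, 1 in the difference, 2 by sex in PBS and 3 in meth hearts. Without a filter there were 177 male, 91 female, 58 PBS and 393 meth calls, and 1 list gene in females. With clear signals asked on all 15 arrays, which removes Alb, Apoh and Fgb, the difference had 12 calls, and the lists 2, 1, 0 by sex in PBS and 5 in meth hearts. A floor on low signals gave 4 list genes in females and 5 by sex in PBS. In females quantile normalization gave 132 calls, the median shift 124 and no trial term 61. The median shift, no trial term, the trial of the source name, slide or scan session as a block and the mean over probes each gave 1 list gene in the difference. The trial of the source name gave 236 calls by sex in PBS and 1788 in meth. Slide as a block gave 525 and 411 in the responses, and scan session as a block 667, 508, 65, 326 and 1156. Trial 1 arrays alone gave 43, 69, 9, 61 and 281, and list counts of 0 in males, 1 in females, 4 by sex in PBS and 6 in meth. The methods' t-test after adjustment gave 0 (paired) and 18 (unpaired) in males and 0 in females, and 0 list genes.

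With the replicate number as a block, the responses had 157, 101 and 0 calls, and the lists 1 gene in males and 1 in females. No sex comparison could be fitted with that block.

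With 1 array left out in turn, counts over all probes ran from 119 (without male PBS trial 1 mouse 2) to 309, from 38 (without female PBS mouse 2) to 205, from 28 to 49, from 42 (without male PBS trial 1 mouse 1) to 153, and from 197 (without male meth trial 1 mouse 2) to 912. Beyond 1.5 times, the male count moved without any male array except meth trial 1 mouse 1, and the female count without any female array except PBS mouse 3 or without either male PBS mouse of trial 2. The PBS count moved so without either male PBS mouse of trial 1, male PBS trial 2 mouse 1 or female PBS mouse 2 or 3, and the meth count without either male meth mouse of trial 1, male PBS mouse 1 of either trial or female meth mouse 3 or 4. List counts ran from 2 (without male meth trial 2 mouse 1) to 4, from 1 (without any of the 7 female arrays) to 4 (without male meth trial 1 mouse 2), and from 0 to 1 (without female meth mouse 1 or female PBS mouse 2). By sex they ran from 5 (without male PBS trial 1 mouse 2, with 6 without female PBS mouse 3) to 13 in PBS, and from 6 (without male meth trial 1 mouse 2) to 13 in meth hearts.

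Of 837 recomputed member differences, 817 stayed within 1 SD of the value given. The 20 others came from normexp (10), the floor (6) and trial 1 arrays alone (4). The male minus female Alb difference in PBS hearts was -1.14 with normexp and -2.95 with the floor, and from -5.22 to -4.17 with an array left out. The Ahsg response stayed between 0.71 and 0.93 in males and between 0.62 and 0.88 in females over all alternatives. Signal over background, rather than depth, limited Alb, Apoh, Fgb and Apoa1 in males and Fga and Ttr in all hearts, whose values are bounds.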

Other observations

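Of all named probes on the array, 17 were well above background in all 7 female hearts and in no male heart. This selection was made after the values had been seen and has no test. Xist, the RNA that silences an X chromosome in females, accounted for 4 of the probes. The others read Alb, Apob, Ambp, Mup3, Mup5, Mug1, Fbp1, Fabp1, Ces1c (a carboxylesterase secreted by the liver), Cyp3a41a (a liver cytochrome of female mice), Sftpc, Bcan and Tceal7. The mean log2 signal in females was -2.81 for Fabp1, -3.58 for Ces1c and -3.88 for Cyp3a41a, against -6.75, -6.65 and -6.03 in males, where these are background readings. Female PBS mouse 2 was the highest female heart for 13 of the 17 probes, Xist probes among them. In the wider set of 118 named probes clear on at least 4 female arrays and no male array, which includes the 17, it was the highest for 41.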
